A study of Mus musculus with 9 samples.

Results

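A set of 10 genes that make, move, break down and receive acetylcholine during the spontaneous activity of the newborn retina were followed in neural retina of mouse pups at postnatal day 4 (P4). Members were taken by name from 53280 genes of a count table and from a transcript table summed per gene, and all 10 members had a row in both. 4 of them act on the transmitter: Chat, Slc5a7, Slc18a3 and Ache. The other 6 encode subunits of nicotinic acetylcholine receptors: Chrna3, Chrna4, Chrna6, Chrna7, Chrnb2 and Chrnb3. The samples were 5 pools from pups homozygous for loss of Opn4, which encodes the light-sensitive protein melanopsin (Opn4KO), and 4 pools from wildtype littermates (Opn4WT) of the same crosses between Opn4+/- parents. Each pool held 4 retinas of 2 animals of 1 genotype, collected at zeitgeber time 6 to 7 h, and all pups were raised under standard lighting of about 300 lux. RNA of over 500 ng and an integrity number above 8.5 was sequenced as poly-A libraries with paired reads of 150 bases. Sex, litter, strain and the part of Opn4 removed are not stated in the labels, and Opn4 was lacking in every cell rather than in a chosen cell type.

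Before photoreceptors drive vision, bursts of activity sweep across the retina as waves. In the first postnatal days of the mouse these waves depend on starburst amacrine cells, which are the retina's cholinergic neurons, excite one another and release acetylcholine onto ganglion cells, the output neurons. Nicotinic receptors are cation channels of 5 subunits that open when acetylcholine binds, and loss of Chrnb2 is known to disrupt these waves. Intrinsically photosensitive ganglion cells, which carry melanopsin, are among the cells that the waves reach.

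Opn4 itself matched the labels. Its level was 1.07 to 1.82 CPM (counts scaled to library size) in knockout and 11.4 to 12 CPM in wildtype, a log2 fold change of −3.10 (edgeR adjusted p = 1.28e-07). Log2 fold changes are knockout minus wildtype throughout. Libraries held 65.5 to 86.1 M counts (M, mega). Of 21150 genes tested with edgeR, 760 (3.59%) passed an adjusted p of 0.05, of which 284 were higher and 476 lower in knockout, and the median log2 fold change of all was 0.0012. Lens markers, summed over 9 genes, reached 15.1 and 13.5 CPM in knockout pools 1 and 2 against 5.76 to 7.69 CPM in the other 7 pools, and 2 of the 6 that were tested, Cryaa and Cryab, were called higher. Rod markers, summed over 8 genes, held 2720 to 3810 CPM in knockout and 2360 to 2590 CPM in wildtype, and 6 were called higher. Knockout pools 1 and 2 held the highest rod sums, 3810 and 3710 CPM, against 2720 to 3040 CPM in knockout pools 3 to 5. Red blood cell markers, summed over 6 genes, held 73.8 to 99.3 CPM in knockout and 110 to 336 CPM in wildtype. Of these 6, 5 were called lower, and of 8 bipolar markers 5 were called higher. Results that rest on knockout pools 1 and 2 are given with and without them. The p-values of the genotype tests set the difference between genotypes against the variation between pools of different animals, whose litters are not stated.

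No member passed the test between genotypes. Against the background of 3.59% of all genes, 0 of 10 were called by edgeR, 2 of 10 (Slc5a7 and Chrna3) had an unadjusted p under 0.05 where 16.5% of all genes did, and 6 log2 fold changes were positive and 4 negative with a median of 0.012. Chrna6 was the 1 member of 10 whose ranges in both genotypes did not overlap, a pattern that 8.29% of all tested genes showed. In TPM summed per gene, a level per transcript length, limma called 0 of 10 members and 2.16% of the 15295 genes tested, and 1 member, Chrna3, had an unadjusted p under 0.05. Among the 20 of 37 member transcripts with enough TPM to test, limma called 0, against 0.178% of 48214 transcripts, and 0 had an unadjusted p under 0.05. In the authors' deposited table, where 1.46% of genes had a q under 0.05, the lowest q of a member was 0.486, for Chrna6. DESeq2, which called 9.19% of the 16225 genes it gave an adjusted p, also called 0 members. In a bulk retina, fewer cells of a type and less RNA per cell cannot be told apart.

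The levels of the members spanned a wide range, and their order was nearly the same in every pool. Ache was highest with a mean of 46.7 TPM over 9 pools, followed by Chrna6 (29.2), Chrna4 (25.9), Chrnb2 (24.3), Chrna3 (22.1), Chrnb3 (15.7), Slc18a3 (10.7), Chat (5.92), Chrna7 (3.98) and Slc5a7 (1.5 TPM). Neighbours stood in this order in 9 of 9 pools except Chrna4 above Chrnb2 (7 of 9), Chrnb2 above Chrna3 (8 of 9) and Chrna7 above Slc5a7 (8 of 9). Chrna4 exceeded Chrnb2 by 1.55 ± 1.33 TPM and Chrnb2 exceeded Chrna3 by 2.27 ± 2.18 TPM (SD, n = 9), so the order of these 3 subunits was not fixed beyond the spread between pools.

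**Figure D1:**
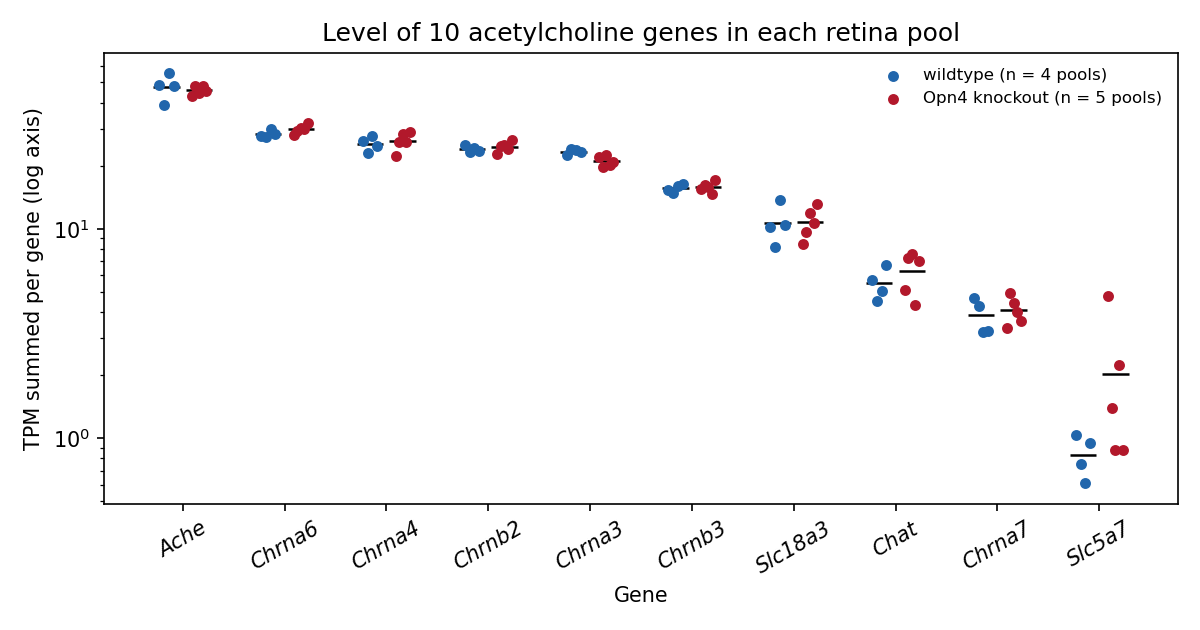
TPM summed per gene (log axis) of the 10 members in each of 4 wildtype (blue) and 5 knockout (red) pools, with bars at the group means and genes ordered by mean. The ranges of both genotypes overlap for the members other than Chrna3. The highest knockout and lowest wildtype pool of Chrna3 both stand at 22.5 TPM after rounding. Knockout pool 1 stands at 4.77 TPM for Slc5a7, above the other 8 pools.

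Chat encodes choline acetyltransferase, the enzyme that makes acetylcholine, and Slc18a3 the transporter that loads it into synaptic vesicles. On GRCm38, Chat lies on chromosome 14 from 32408203 to 32465989, minus strand, and Slc18a3 from 32462438 to 32464850 on the same strand, within the body of Chat, in an intron, without touching any annotated Chat exon. Their start sites are 1139 bases apart. The sequence just upstream of each start site is shown because the 2 genes are neighbours that act in the same cells and stood at different levels. These are the exon-free parts of the RefSeq promoter windows on GRCm38.p6, printed 5′ to 3′ on the minus strand, for Chat chr14:32465990-32466159 and for Slc18a3 chr14:32464851-32465041. Capitals mark matches to the motifs searched.
Chat: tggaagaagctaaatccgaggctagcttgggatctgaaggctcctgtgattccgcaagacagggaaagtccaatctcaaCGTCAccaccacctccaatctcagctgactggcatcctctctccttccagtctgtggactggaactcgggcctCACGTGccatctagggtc
Slc18a3: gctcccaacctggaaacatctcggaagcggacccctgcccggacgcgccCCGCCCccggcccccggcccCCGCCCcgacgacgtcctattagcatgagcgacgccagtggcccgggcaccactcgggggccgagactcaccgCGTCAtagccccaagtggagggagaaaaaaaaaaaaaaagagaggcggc

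Both strands were searched for 5 motifs. They were TGACG, with its reverse complement CGTCA, then the palindrome TAATTA, then the E-box CACGTG, then the GC box GGGCGG, with its reverse complement CCGCCC, and then the TATA box TATAAA, whose reverse complement is TTTATA. No 2 matches overlapped. Both windows held 1 TGACG on the opposite strand. The Chat window also held 1 CACGTG, and the Slc18a3 window 2 GGGCGG on the opposite strand. In the same stretch of all 27025 promoters, TGACG occurred in 9.8% for the 170 bases of Chat and in 15.4% for the 191 bases of Slc18a3, CACGTG in 3.39% and 5.05%, GGGCGG in 19.3% and 31.0%, TAATTA in 3.74% and 3.63%, and TATAAA in 8.34% and 10.1%. Neither window held TAATTA or TATAAA. A match describes letters only.

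Chat did not differ between genotypes beyond its spread. Levels were 6.57, 5.92, 7.81, 6.60 and 7.34 CPM in knockout pools 1 to 5 and 6.39, 6.66, 7.24 and 7.62 CPM in wildtype pools 1 to 4. The lowest and the highest pool were both knockout, and the ranges overlapped throughout. The difference was −0.03 on the log2 scale (SE 0.10) with a 95% interval of −0.25 to 0.20 (edgeR adjusted p = 0.934). Gene TPM gave a positive value, 0.154 on the log2(TPM + 0.5) scale (SE 0.174, limma adjusted p = 0.74).

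In CPM, Slc18a3 varied more from pool to pool than Chat, relative to its mean. In gene TPM it did not, at 10.7 ± 1.9 TPM against 5.92 ± 1.24 TPM for Chat (SD, n = 9). It stood at 11.2, 13, 15.9, 14.6 and 17.7 CPM in knockout and 14.1, 11.7, 18.1 and 14.3 CPM in wildtype, so that both genotypes covered nearly the same span. On the log2 scale the difference of −0.01 (SE 0.14) had an interval of −0.31 to 0.29 (edgeR adjusted p = 0.986). Per length, Slc18a3 exceeded Chat in 9 of 9 pools, with a TPM ratio of 1.78 ± 0.431 in knockout (SD, n = 5) and 1.96 ± 0.501 in wildtype (SD, n = 4), which did not differ beyond the spread (exact permutation p = 0.532, 0.684 adjusted over the 9 shares and ratios tested).

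The gene body of Chat ends 2.12 Mb from that of Opn4, on the same chromosome. The labels do not give the strain in which the Opn4 allele was made, so a difference near Opn4 from linked sequence and one from the loss of Opn4 cannot be told apart. Within 3 Mb of Opn4, 6 of 47 tested genes (12.8%) were called by edgeR, against 3.59% of all tested genes. The share was not tested against that of all genes. Galnt15 (−0.29) and Zfp488 (−0.50) were lower and Grid1 (0.32), Lrit1 (0.44), Lrit2 (0.66) and Cdhr1 (0.60) higher on the log2 scale. Of the 21 tested genes between Chat and Opn4, 1 was called. Chat and Slc18a3, at −0.03 and −0.01, lay near the middle of this set. The antisense gene Gm2990, from 32465042 to 32483548 on the plus strand, starts between the start sites of Slc18a3 and Chat. It held 1.97 ± 0.365 CPM in knockout and 2.04 ± 0.183 CPM in wildtype (SD, n = 5 and 4). Whether the counting used strand is not given, so reads of Chat and of Gm2990 may not have been told apart where they overlap.

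**Figure D2:**
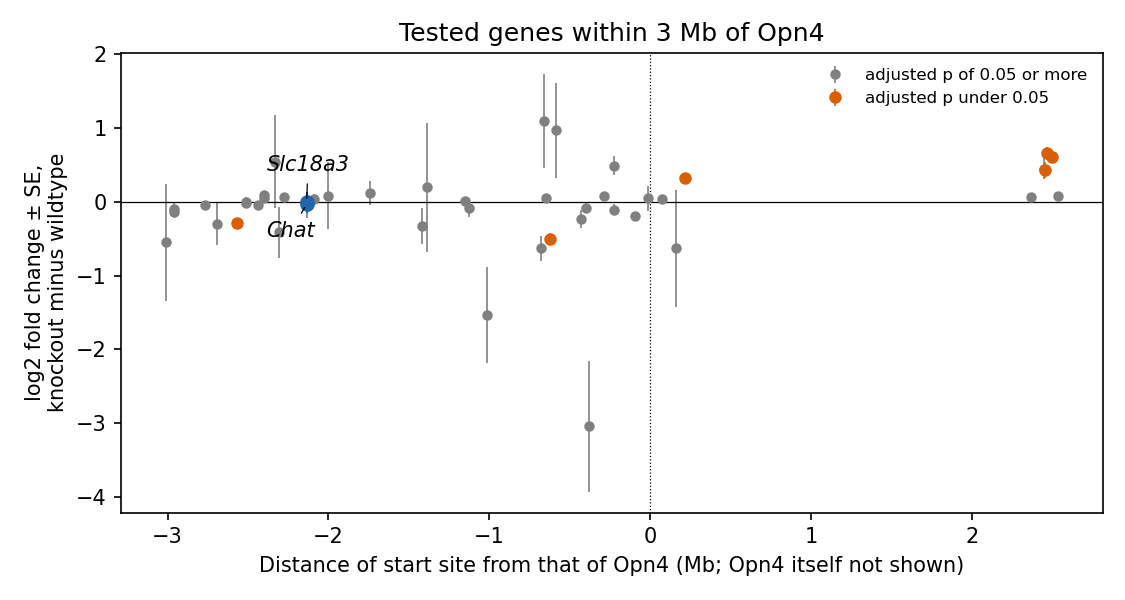
Log2 fold change ± SE (knockout minus wildtype) of the 47 tested genes within 3 Mb of Opn4 against the distance of their start site from that of Opn4 in Mb, with called genes in orange and Chat and Slc18a3 in blue. Chat and Slc18a3 stand at −0.03 and −0.01 near −2.13 Mb, while the 3 called genes Lrit1, Lrit2 and Cdhr1 stand together near 2.5 Mb.

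Slc5a7 encodes the high-affinity choline transporter, which returns choline to cholinergic terminals for new synthesis (chromosome 17, 54273590 to 54299034, minus strand). It had the largest log2 fold change of the 10 members and the fewest counts, 118 to 281 per pool. Levels were 3.55, 3.63, 2.51, 2.62 and 2.55 CPM in knockout pools 1 to 5 and 2.11, 2.17, 1.42 and 2.63 CPM in wildtype pools 1 to 4. Knockout pools 1 and 2 stood above all others, and wildtype pool 4, at 2.63 CPM, stood just above the other 3 knockout pools, so the ranges overlapped. The log2 fold change was 0.51 (SE 0.19, interval 0.09 to 0.93), with an unadjusted edgeR p of 0.0201 and an adjusted p of 0.193. Without knockout pools 1 and 2, in which lens and rod markers were highest, it was 0.29 (edgeR adjusted p = 0.566). The part of those transcripts in the result was not tested.

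The TPM of Slc5a7 were less even. Knockout pool 1 held 4.77 TPM, knockout pools 2 to 5 held 1.40, 0.876, 2.23 and 0.875 TPM, and the wildtype pools 1.03, 0.749, 0.609 and 0.950 TPM. Of the 4.77 TPM, 3.55 came from 1 of the 3 transcript rows of the gene, a row at 1.30 TPM in knockout pool 4, at 0.0799 and 0.189 TPM in wildtype pools 2 and 1, and listed at 0 in the other 5 pools. The table names no transcripts, so that row has no identity here. The gene TPM gave a log2 fold change of 0.73 on the log2(TPM + 0.5) scale (SE 0.38, limma adjusted p = 0.394). In the authors' deposited table Slc5a7 had a log2 effect of 0.81 with a standard error of 0.50 and a q of 0.587. The TPM ratio of Slc5a7 to Chat was 0.935, 0.194, 0.116, 0.516 and 0.124 in knockout and 0.180, 0.166, 0.120 and 0.142 in wildtype (exact permutation p = 0.333, adjusted 0.684). Only knockout pools 1 and 4 exceeded 0.2, the same 2 pools in which that transcript row exceeded 1 TPM.

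Ache encodes acetylcholinesterase, which breaks acetylcholine down in the synaptic cleft (chromosome 5, 137287519 to 137294466, plus strand). Levels were 44.7, 42.2, 44.9, 46.6 and 45.5 CPM in knockout pools 1 to 5 and 42.8, 40.6, 48.9 and 45.2 CPM in wildtype pools 1 to 4. The wildtype pools enclosed all knockout pools. The log2 difference of 0.01 (SE 0.06) had an interval of −0.11 to 0.14 (edgeR adjusted p = 0.953). Of 9 transcript rows of Ache, 4 were listed at 0 in every pool, and the leading row took 52.7% of the TPM of the gene. The lowest adjusted p of any member transcript, 0.593 by limma, belonged to an Ache row at 5.99 ± 1.84 TPM in knockout (SD, n = 5) and 7.88 ± 1.26 TPM in wildtype (SD, n = 4). The TPM ratio of Ache to Chat was 7.72 ± 2.13 in knockout and 8.79 ± 1.54 in wildtype (SD, n = 5 and 4, exact permutation p = 0.405, adjusted 0.684).

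Subunits of the alpha class carry a pair of adjacent cysteines next to the site where acetylcholine binds, and beta subunits lack it. The coding stretch around that pair is shown because it is what separates the members that can form the principal face of the binding site from their partners. In the transcripts numbered 201 in GENCODE M21, each alpha member held exactly 1 pair of adjacent cysteine codons, at codon 222 of Chrna3, 227 of Chrna4, 222 of Chrna6 and 212 of Chrna7, and Chrnb2 and Chrnb3 held 0. Each 36-base stretch lies within 1 coding exon on GRCm38, minus strand, at chr9:55015839-55015874 (Chrna3), chr2:181029263-181029298 (Chrna4), chr8:27407164-27407199 (Chrna6) and chr7:63106143-63106178 (Chrna7). Capitals mark the codon pair.
Chrna3: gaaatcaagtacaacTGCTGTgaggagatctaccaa
Chrna4: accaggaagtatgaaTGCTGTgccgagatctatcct
Chrna6: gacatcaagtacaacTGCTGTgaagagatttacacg
Chrna7: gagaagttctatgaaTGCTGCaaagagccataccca

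Chrnb2, the beta subunit on which the early waves depend, took the most counts of the members (chromosome 3, 89746195 to 89764632, minus strand). Levels were 88.8, 94.2, 92.0, 89.6 and 99.0 CPM in knockout pools 1 to 5 and 93.8, 88.5, 89.8 and 90.1 CPM in wildtype pools 1 to 4. The 2 genotypes overlapped, with knockout pool 5 above the rest. With a log2 fold change of 0.03 (SE 0.04, interval −0.06 to 0.13), Chrnb2 did not pass (edgeR adjusted p = 0.758).

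Chrna3 encodes an alpha subunit that pairs with Chrnb2 or Chrnb4 (chromosome 9, 55010111 to 55026562, minus strand). It stood at 53.1, 46.8, 51.8, 48.4 and 47.6 CPM in knockout and 53.1, 55.6, 54.0 and 53.0 CPM in wildtype. Of 5 knockout pools, 4 lay below all wildtype pools, and knockout pool 1 lay among them. The log2 fold change was −0.12 (SE 0.05, interval −0.23 to −0.02), with an unadjusted edgeR p of 0.0278 and an adjusted p of 0.230. Gene TPM gave −0.15 on the log2(TPM + 0.5) scale (SE 0.06, limma adjusted p = 0.236), and the authors' deposited table a log2 effect of −0.08 with a standard error of 0.08 and a q of 0.839.

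Chrna6, an alpha subunit found in few places beyond the visual system and catecholamine neurons, lies 3482 bases from Chrnb3 on chromosome 8 (27403212 to 27413944, minus strand). Levels were 47.9, 48.7, 49.4, 49.5 and 51.4 CPM in knockout pools 1 to 5 and 45.6, 45.8, 47.6 and 46.9 CPM in wildtype pools 1 to 4. Every knockout pool lay above every wildtype pool, by as little as 47.9 against 47.6 CPM. Its log2 fold change of 0.09 (SE 0.04, interval −0.01 to 0.18) did not pass (edgeR adjusted p = 0.332). In gene TPM the ranges overlapped, at 27.9 to 31.9 TPM in knockout and 27.3 to 29.8 TPM in wildtype (limma adjusted p = 0.561).

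Chrnb3, an accessory beta subunit that joins receptors with Chrna6 (27368711 to 27399730, plus strand), showed no such separation. It stood at 40.9, 39.1, 39.9, 37.3 and 42.9 CPM in knockout and 38.8, 38.9, 39.8 and 41.4 CPM in wildtype, with the knockout pools on both sides of the wildtype range. Its log2 fold change of 0.01 had an SE of 0.05 and an interval of −0.10 to 0.12 (edgeR adjusted p = 0.948).

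Chrna4, the usual alpha partner of Chrnb2 in the brain (chromosome 2, 181018380 to 181043546, minus strand), held 57.9, 59.0, 62.5, 62.5 and 64.2 CPM in knockout and 63.1, 58.2, 63.6 and 60.3 CPM in wildtype. Its groups overlapped almost fully, with a log2 fold change of −0.00 (SE 0.05, interval −0.10 to 0.10, edgeR adjusted p = 0.992). Chrna7, which forms receptors without a beta subunit (chromosome 7, 63098692 to 63212569, minus strand), was the lowest of the 6 subunits. It held 4.01, 6.10, 5.53, 4.95 and 4.52 CPM in knockout and 5.57, 5.68, 3.84 and 4.06 CPM in wildtype. Both genotypes had pools near 4 and near 6 CPM, and the log2 fold change of 0.07 had an interval from −0.27 to 0.41 (SE 0.16, edgeR adjusted p = 0.890).

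**Figure D3:**
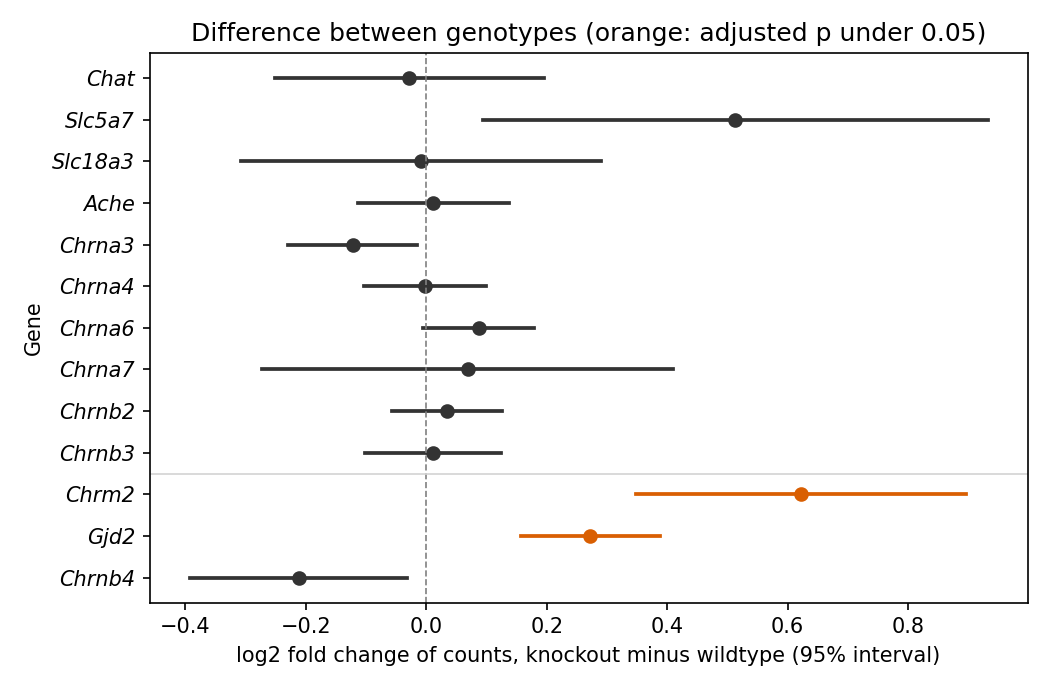
Log2 fold change of counts (knockout minus wildtype) with its 95% interval for the 10 members, above the line, and for Chrm2, Gjd2 and Chrnb4, below it. All member points are black (not called), the intervals of Slc5a7 and Chrna3 miss 0 before adjustment, and the 2 called genes Chrm2 and Gjd2 are orange.

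The mix of the 6 subunits was then compared as the share of each in their summed TPM. Chrna3 took 17.3 ± 1.28% in knockout (SD, n = 5) and 19.4 ± 0.851% in wildtype (SD, n = 4), a difference of −2.02 percentage points (exact permutation p = 0.0397, adjusted 0.179). Chrna6 took 24.5 ± 0.451% in knockout and 23.5 ± 0.41% in wildtype, a difference of 1.06 points (SD, n = 5 and 4, exact permutation p = 0.0159, adjusted 0.143). The Chrna6 share was higher in all 5 knockout pools than in all 4 wildtype pools, although 1 pool of each genotype stood at 23.9% after rounding. The smallest p that 5 pools against 4 can give is 0.00794. For Chrna4, Chrna7, Chrnb2 and Chrnb3 the unadjusted exact permutation p was 0.317 or more, and 0 of the 9 shares and ratios passed after adjustment. Shares in 1 sum are not independent, since a lower share of 1 subunit raises the others.

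**Figure D4:**
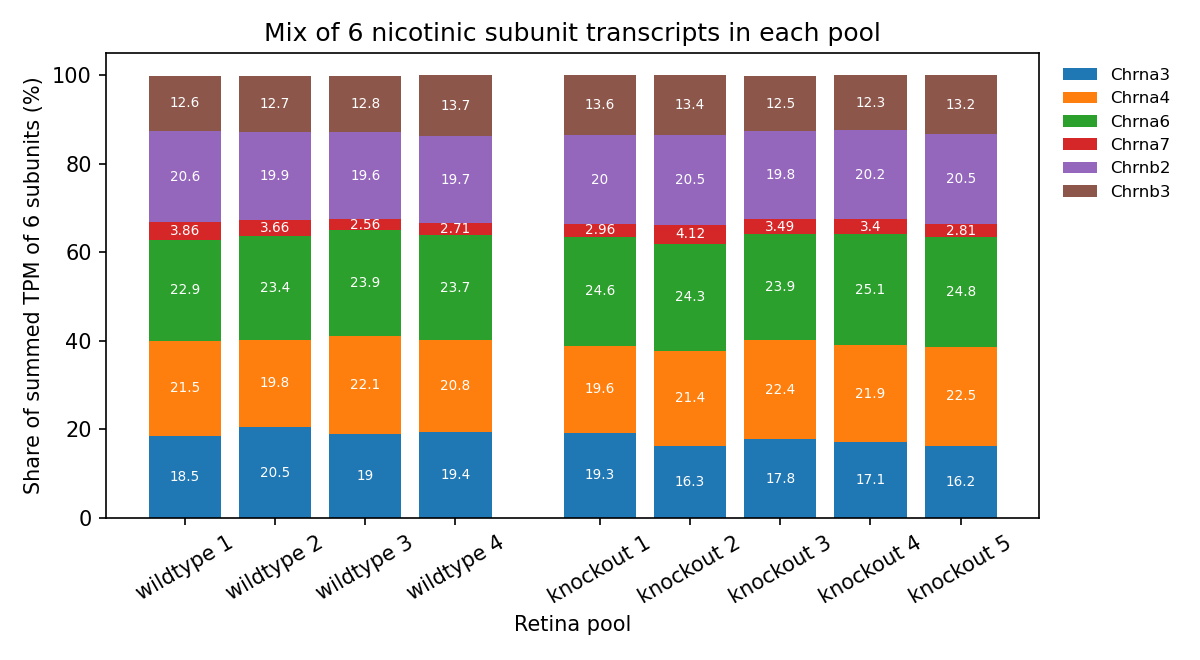
Share (%) of each of 6 nicotinic subunits in their summed TPM, 1 bar for each of 4 wildtype and 5 knockout pools, with the value in each segment. Chrna3 took 18.5 to 20.5% in wildtype pools and 16.2 to 19.3% in knockout pools, and Chrna6 was the largest segment in every pool.

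Members were compared for shared variation from pool to pool in log2 CPM over 9 pools, across all 45 pairs. One pair passed the adjustment, Slc18a3 with Chrna4, with a Pearson r of 0.913 (permutation p = 0.000394, adjusted 0.0177). Its Spearman rho was 0.867 (permutation p = 0.00451, adjusted 0.203), and r was 0.88 without the 2 pools farthest from the median of Slc18a3. After the genotype means were subtracted, r was again 0.913 (permutation p = 0.00208, adjusted 0.0859), and 0 of 45 pairs passed. Slc18a3 with Chrna6 then had an r of 0.888 with the same adjusted value (permutation p = 0.00382, adjusted 0.0859). In that setting, 7 of the 45 pairs had an unadjusted permutation p under 0.05. Chat and Slc18a3, the nested pair, had an r of 0.593 (permutation p = 0.0935, adjusted 0.481), a rho of 0.6 (permutation p = 0.0968, adjusted 0.543) and an r of 0.675 without the 2 pools farthest from the median of Chat. Chrna3 and Chrna6 had an r of −0.781 (permutation p = 0.0135, adjusted 0.304) and a rho of −0.717 (permutation p = 0.0369, adjusted 0.332), neither past the adjustment, and r was −0.759 without the 2 farthest pools. With the genotype means subtracted, that r was −0.459. Over 15744 genes with a mean CPM of at least 1, the 5 with the highest Pearson r to Chat over the 9 pools were Wnt5b (0.951), Ankrd13a (0.907), Mpp6 (0.901), Chst7 (0.886) and Itpripl2 (0.88), none of them a member. These are the highest of many values over the same 9 pools, and they are given as a description.

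A further 6 lists hold the rest of the acetylcholine pathway, other genes of retinal waves and markers of starburst cells, 56 genes in all. Of these, 49 had enough counts to test, and 2 were called higher by edgeR and 0 lower. That share was near the 3.59% of all tested genes, so the edgeR count says nothing particular about these lists. The median log2 fold change was 0.11, against 0.0012 over all tested genes. The 2 called genes were Chrm2, a muscarinic receptor, and Gjd2, the gap junction protein connexin 36. DESeq2, against its background of 9.19%, called 8 of the 43 it gave an adjusted p, a share above that background. The excess was not tested. The 8 were these 2 and Lypd1, Lynx1, Gjc1, Sox2, Slc44a1 and Slc44a2. With 1 setting changed, edgeR also called Gjc1 in 5 settings, Slc44a2, Lypd1 and Sox2 in 2 each, and Lynx1 and Chrnb4 in 1 each, as given at each gene.

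Chrm2 encodes a muscarinic receptor that couples acetylcholine to inhibitory G proteins. It held 3.44, 3.74, 3.52, 3.29 and 3.25 CPM in knockout and 2.09, 2.23, 2.01 and 2.62 CPM in wildtype. All knockout pools lay above all wildtype pools. Chrm2 rose in knockout by a log2 fold change of 0.62 (SE 0.13, interval 0.35 to 0.90), or 1.54-fold (edgeR adjusted p = 0.014). Leaving out wildtype pool 1 gave 0.59 (edgeR adjusted p = 0.0563), and leaving out knockout pools 1 and 2 gave 0.58 (edgeR adjusted p = 0.0808), neither of which passed. Its q in the authors' deposited table was 0.181, and its TPM, 0.851 on average, were under the minimum for the limma test. Of the 5 muscarinic receptors, all tested, Chrm2 was the 1 called, by edgeR and DESeq2 alike. Chrm3, the highest per length at 3.11 TPM, had a log2 fold change of 0.16 (SE 0.12, edgeR adjusted p = 0.568), and Chrm1 one of −0.09 (SE 0.13, edgeR adjusted p = 0.796).

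Gjd2 joins retinal neurons electrically and is known to shape waves before and beside the cholinergic ones. It held 60.0, 64.9, 60.7, 56.5 and 60.0 CPM in knockout and 50.4, 49.0, 53.9 and 46.9 CPM in wildtype, again without overlap. Gjd2 rose in knockout by a log2 fold change of 0.27 (SE 0.05, interval 0.16 to 0.39), or 1.21-fold (edgeR adjusted p = 0.0114). The q in the authors' deposited table was 0.0111. In gene TPM it missed the threshold (limma adjusted p = 0.0764), and edgeR no longer called it when wildtype pool 4 (0.24, adjusted p = 0.053) or knockout pools 1 and 2 (0.24, adjusted p = 0.0803) were left out. Of the 10 other wave genes, Gjd2 was the 1 called by edgeR with all pools and the settings of the main test. Gjc1, connexin 45, stood lower in all 5 knockout pools (30.1 to 34.5 CPM) than in all wildtype pools (35.4 to 38.5 CPM), with a log2 fold change of −0.22 (SE 0.06, edgeR adjusted p = 0.0519). This value sits at the threshold. Gjc1 was called by DESeq2 (adjusted p = 0.00558) and by edgeR with upper-quartile factors (adjusted p = 0.0388), library totals (0.0382), a mean CPM of at least 1 (0.0377), a robust fit (0.0448) or without knockout pool 3 (0.0282). Adcy1, an adenylyl cyclase, had 0.11 (SE 0.06, edgeR adjusted p = 0.430).

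**Figure D5:**
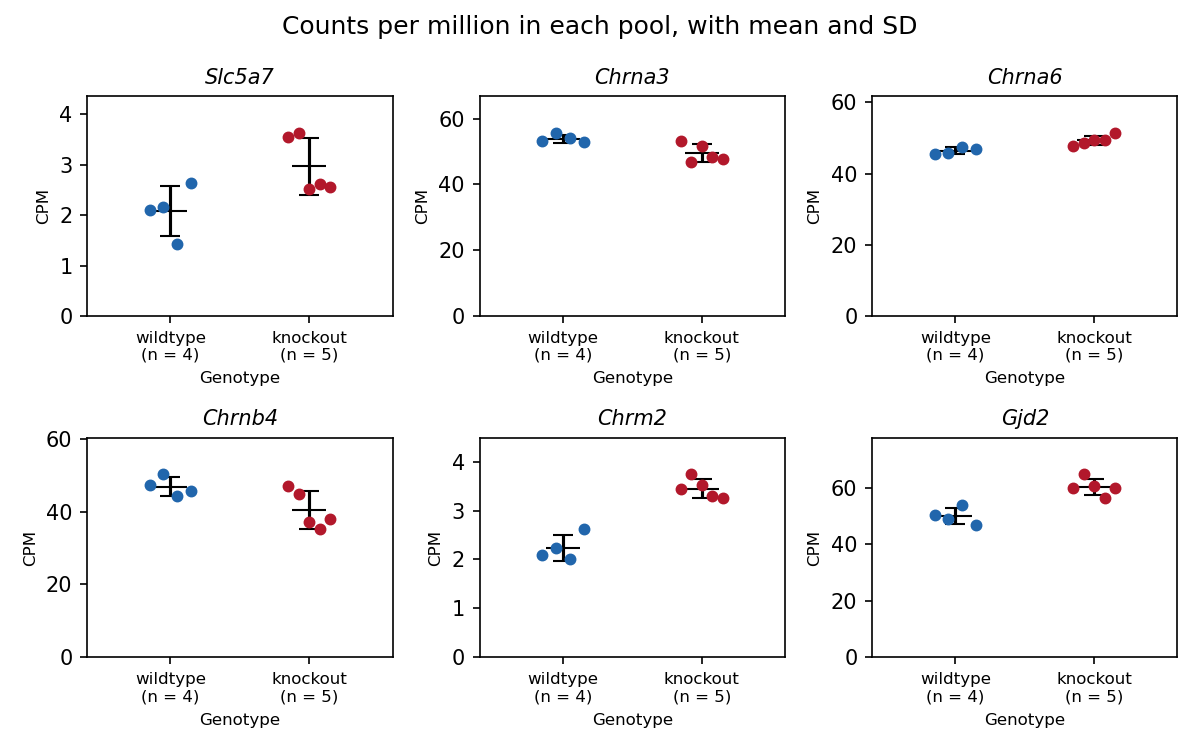
CPM in each pool (points) with mean and SD (bars) for Slc5a7, Chrna3, Chrna6, Chrnb4, Chrm2 and Gjd2, in 4 wildtype and 5 knockout pools, on axes that start at 0. Chrm2 and Gjd2 are separated between genotypes, Chrna6 by a narrow margin, and the other 3 overlap.

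Among the other nicotinic subunits, 5 of 10 were tested, 0 were called by edgeR or DESeq2, and 1 (Chrnb4) had an unadjusted edgeR p under 0.05. Chrnb4, which lies 1592 bases from Chrna3 in a cluster with Chrna5, held 47.1, 44.8, 37.2, 35.2 and 38.0 CPM in knockout and 47.3, 50.3, 44.3 and 45.6 CPM in wildtype. Knockout pools 1 and 2 lay among the wildtype pools and knockout pools 3 to 5 below them. Over all pools the log2 fold change of −0.21 (SE 0.08) did not pass (edgeR adjusted p = 0.214), and it was −0.35 without knockout pools 1 and 2 (edgeR adjusted p = 0.0114), the 1 pathway gene called in that setting. Chrna5, the other neighbour in the cluster, had 0.26 (SE 0.14, edgeR adjusted p = 0.381), so the log2 fold changes of the 3 clustered genes did not share a sign and none was called. Chrna9 and Chrna10, known from hair cells, had 0 counts in all 9 pools, where 3 counts would be 0.0348 to 0.0458 CPM. Chrnd, Chrne and Chrng, subunits of muscle receptors, stayed under 0.15 CPM in every pool, and 8 markers of skeletal muscle summed to 10.9 to 13.3 CPM in knockout and 11.3 to 14 CPM in wildtype, with 0 of the 6 tested called.

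In choline supply and cholinesterase, 11 of 12 genes were tested, 0 were called by edgeR, and 3 had an unadjusted p under 0.05. Acly, which makes acetyl-CoA in the cytosol, had a log2 fold change of 0.00 (SE 0.04, edgeR adjusted p = 0.996), and Chka, a choline kinase, −0.01 (SE 0.06, edgeR adjusted p = 0.938). The choline transporter-like gene Slc44a2 came nearest, at 42.2 ± 1.72 CPM in knockout and 48.0 ± 1.61 CPM in wildtype (edgeR adjusted p = 0.0556). edgeR called it with upper-quartile factors (adjusted p = 0.0471) and with a mean CPM of at least 1 (adjusted p = 0.041), and DESeq2 at 0.00808. Its relative Slc44a1 had 0.22 (SE 0.07, edgeR adjusted p = 0.112, DESeq2 adjusted p = 0.0313). Of the 10 receptor chaperones and prototoxins, 9 were tested, 0 were called by edgeR and 3 had an unadjusted p under 0.05, with 7 positive and 2 negative log2 fold changes. Lypd1 (0.33, SE 0.09, edgeR adjusted p = 0.0715) and Lynx1 (0.36, SE 0.11, edgeR adjusted p = 0.102), small proteins that bind nicotinic receptors, came nearest to the threshold. edgeR called Lypd1 without knockout pool 5 (adjusted p = 0.0475) or wildtype pool 1 (adjusted p = 0.0478) and Lynx1 without wildtype pool 3 (adjusted p = 0.00951), and DESeq2 called both (adjusted p = 0.0104 and 0.0182). Ly6h and Ly6e, the highest per length at 137 and 79.1 TPM, had −0.03 and 0.15, and the chaperone Ric3 had 0.16 (edgeR adjusted p = 0.886, 0.507 and 0.165).

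With all pools, no marker of starburst cells other than the members was called by edgeR without a replicate block. Of 9, all tested, 2 had an unadjusted p under 0.05, with 5 positive and 4 negative log2 fold changes, and their summed level was 769 to 813 CPM in knockout and 693 to 800 CPM in wildtype. Isl1 and Sox2, transcription factors that starburst cells share with other retinal cells, had −0.09 (SE 0.05, edgeR adjusted p = 0.457) and −0.18 (SE 0.05, edgeR adjusted p = 0.1). Sox2 was the 1 marker of the 9 whose ranges did not overlap, at 59.9 to 70.7 CPM in knockout and 72.1 to 76.0 CPM in wildtype, a pattern that 8.29% of all tested genes showed. edgeR called it with the replicate block (adjusted p = 0.0379) and without knockout pool 5 (adjusted p = 0.0487), and DESeq2 at 0.04. Ganglion cells carry many of the nicotinic receptors. Among 12 of their markers, 3 (Nefh, Ebf3 and Slc17a6) were called higher and 0 lower, where 3.59% of all genes were called. The 12 did not share a direction, with 6 positive and 6 negative log2 fold changes and a median of −0.034. Their sum was 1330 to 1520 CPM in knockout and 1360 to 1470 CPM in wildtype. Among 10 amacrine markers, 2 (Gad2 and Ptf1a) were called lower and 0 higher, with sums of 1220 to 1330 and 1240 to 1340 CPM. Of these 10, 8 had an unadjusted edgeR p under 0.05, where 16.5% of all genes did. The ranges of 5 of the 10 did not overlap, a pattern that 8.29% of all tested genes showed. Their log2 fold changes also went both ways, 4 positive and 6 negative, with a median of −0.08. The part of cell numbers in the values of the members was not tested.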

How the data were processed

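RNA of 9 retina pools was measured by RNA-seq. The authors deposited whole-number counts per gene symbol, and the program that wrote these counts, its use of strand and its handling of reads with several matches are not given in the sources used here. The totals exceed the read depth that the submitters state. The authors also deposited a signal table of TPM (a transcript level scaled by length and sample total) per transcript, for which the submitters' processing notes name Trimmomatic 0.39, kallisto 0.46.1 and GRCm38. Its columns sum to 953963 to 1083977, so the TPM were rescaled between samples in a way not described in the sources used here. Of its 118489 rows, 1861 with no usable symbol, holding 0.754 to 0.979% of a pool's TPM, were left out. The third deposited table holds p-values, q-values and effects on the natural log scale from sleuth 0.30.8, per the file headers and the submitters' processing notes. Its effects are positive where wildtype was higher, which was read from Opn4, and they were converted to log2 with knockout minus wildtype.

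Counts were tested with edgeR 4.0.16 in R 4.3.3 (filterByExpr, TMM, quasi-likelihood F test, two-sided, Benjamini-Hochberg over 21150 genes, threshold 0.05). CPM are counts scaled to library size and TMM factor. TPM summed per symbol and TPM of single transcripts were tested with limma-trend (limma 3.58.1) after adding a pseudocount of 0.5 and taking log2, which makes changes of low genes look smaller, where at least 4 pools reached a TPM of 1. Shares and ratios were compared with exact two-sided permutation tests over the 126 ways to choose 5 of 9 pools, in Python 3.11.15 with scipy 1.17.1. Correlations between members used permutation p-values adjusted over 45 pairs. The scripts were tested on simulated data, with the changed genes drawn at random from all tested genes. In simulated counts edgeR recovered 55 of 100 genes changed 1.5-fold and 65 of 100 changed 2-fold. In simulated gene TPM limma recovered 174 of 200 genes changed by 1 on the log2 scale. A gene that was not called can therefore still differ. Alternatives were other scalings, filters and pseudocounts, DESeq2 1.42.0, a replicate block, the authors' own table, each pool left out in turn, and knockout pools 1 and 2 left out together. Positions are those of GENCODE M21 (GRCm38), which held 96.7% of 53280 symbols exactly once. Promoter sequences came from RefSeq on GRCm38.p6.

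The members and all gene lists were chosen with earlier results of these data known. Besides the 10 members, the text names every called gene of 6 further lists (other nicotinic subunits, muscarinic receptors, choline supply and cholinesterase, receptor chaperones and prototoxins, other wave genes, starburst markers), the 2 genes of each list with the highest summed TPM, the 5 genes most like Chat, and the called genes within 3 Mb of Opn4. Genes named beyond this rule were chosen after their values were seen. They are Slc44a1, Slc44a2, Lynx1, Lypd1, Ric3, Chrna9, Chrna10, Chrnd, Chrne, Chrng, Gm2990 and the called lens, ganglion cell and amacrine markers (Cryaa, Cryab, Nefh, Ebf3, Slc17a6, Gad2, Ptf1a).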

Additional observations from a re-analysis of the deposited data

How the results depend on the processing

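No member passed the threshold in any setting in which it was tested, in counts, gene TPM, transcript TPM or the authors' deposited table. In gene TPM, Slc5a7 was under the minimum without knockout pool 1, 2 or 4 or wildtype pool 1, and its 3 transcript rows were tested only with no filter on low TPM. Transcript fits left out no pool. The count of pathway genes called moved from 2 to 4 with upper-quartile size factors, to 4 with a mean CPM of at least 1, to 8 with DESeq2 and to 1 without knockout pools 1 and 2, and ranged from 1 to 4 with 1 pool left out. Over all genes, 760 calls became 1491 with DESeq2 and 486 without knockout pools 1 and 2. After the genotype means were subtracted, 0 of 45 member correlations passed, against 1. Chat (0.154, SE 0.174), Slc18a3 (0.023, SE 0.154), Chrna4 (0.043, SE 0.083) and Ache (−0.045, SE 0.086) had the opposite sign in gene TPM to that in counts. Among values far inside their error, the count value of Ache turned to −0.00028 (log2) with upper-quartile size factors. Without knockout pools 1 and 2, Chat turned to 0.0505, Slc18a3 to 0.137, Chrna4 to 0.0381, the difference in Chrnb3 share to −0.281 percentage points and that in the Slc18a3 to Chat ratio to 0.00561. With the strongest transcript row of each gene only, a setting chosen after seeing the data, the differences became −0.518 percentage points for the Chrna4 share, 0.193 for Slc18a3 to Chat and 0.86 for Ache to Chat.

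With 1 pool left out, log2 fold changes of counts ranged from −0.0819 to 0.0204 for Chat, −0.103 to 0.113 for Slc18a3, −0.0329 to 0.0619 for Ache, −0.0298 to 0.018 for Chrna4, −0.0228 to 0.157 for Chrna7 and −0.0179 to 0.0354 for Chrnb3, so these 6 crossed 0. Slc5a7 (0.368 to 0.643), Chrna3 (−0.148 to −0.102), Chrna6 (0.0693 to 0.0993) and Chrnb2 (0.00678 to 0.0497) kept their sign. In gene TPM the ranges were −0.088 to 0.146 for Slc18a3, −0.136 to 0.0276 for Ache, −0.00182 to 0.0998 for Chrna4 and −0.00988 to 0.0444 for Chrnb3. Differences in share ranged from −0.0573 to 0.375 percentage points for Chrna7 and −0.102 to 0.307 for Chrnb3, and that in the Slc18a3 to Chat ratio from −0.359 to 0.059. The causes of these shifts were not tested.

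The labels number pools 1 to 4 in both genotypes but state no shared litter or day. Deviations from the genotype means, over all tested genes, correlated at 0.002, −0.0307, 0.00614 and −0.0297 between same-numbered pools. These values do not show whether such pools share a litter or day, since an effect on few genes would hardly move them. The number was not used in the main test. With that number as a replicate block, 3 pathway genes were called, no member was called and Chrnb3 turned to −0.0153. Counting depth limits Slc5a7 most: its lowest pool held 118 counts, for a counting error of 9.21% if each count is an independent molecule. The intervals cover the spread between pools, whose cause was not tested.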

Other observations

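The 10 members differed in depth and in their spread across pools. Slc5a7 and Chrna7, the members with the lowest TPM, held 118 to 281 and 307 to 480 counts per pool, and Slc18a3 held 859 to 1512. Chrnb2, with 5985 to 8462 counts, had a counting error of 1.29% in its lowest pool. Slc18a3, with a counting error of 3.41% in its lowest pool, held 14.5 ± 2.51 CPM in knockout (SD, n = 5) and 14.6 ± 2.62 CPM in wildtype (SD, n = 4), and Chrna6 49.4 ± 1.32 and 46.5 ± 0.945 CPM. The spread between pools of different animals holds more than counting error. These counting errors assume that each count is an independent molecule.

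The TPM table split Chat into transcript rows, a split that counts per gene cannot show. Its leading row took 63.0% of the TPM of the gene and held 3.65 ± 0.549 TPM in knockout and 3.83 ± 0.378 TPM in wildtype (SD, n = 5 and 4). Another row stood at 2.07, 2.51 and 1.08 TPM in knockout pools 2, 3 and 5 and at 1.16 TPM in wildtype pool 4, and was listed at 0 in the other 5 pools. Its difference did not pass the test (limma adjusted p = 0.757). Of the 37 transcript rows of the members, 7 were listed at 0 in all 9 pools.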
